A study of Homo sapiens with 28 samples.

Results

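Interferon-stimulated genes are the genes that cells switch on when interferons bind their receptors. The set described here holds 39 named genes of this kind, found by symbol among 60483 gene rows of the count table. The 39 genes comprised 4 members of the OAS family (OAS1, OAS2, OAS3, OASL), 4 of the IFIT family (IFIT1, IFIT2, IFIT3, IFIT5) and 4 membrane restriction factors (IFITM1, IFITM2, IFITM3, BST2). A further 9 genes belonged to ISG15 conjugation or other ubiquitin-related functions (ISG15, UBE2L6, HERC5, HERC6, USP18, DTX3L, PARP9, PARP14, TRIM22), and 5 encoded transcription factors or a sensor (STAT2, IRF1, IRF7, IRF9, IFIH1). The remaining 13 were 8 other antiviral effectors (MX1, ISG20, RSAD2, CMPK2, SAMD9, SAMD9L, XAF1, EPSTI1) and 5 genes named for their induction by interferon (IFI6, IFI27, IFI35, IFI44, IFI44L).

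They were measured by RNA sequencing in H1944 and A549, 2 established human lung adenocarcinoma lines that both carried a fluorescent reporter, MGT#1-mVenus, in every library, controls included. Treatment lasted 11 days, with the cytokine TGF-β1 (5 ng/ml), which drives epithelial cells towards a mesenchymal state, or with GSK126 (5 µM), which blocks the EZH2 histone methyltransferase, and cells were then sorted into a high and a low mVenus gate. The H1944 libraries numbered 3 for each of TGF-β1 high, TGF-β1 low, GSK126 high, GSK126 low and naive cells; the A549 libraries numbered 3 for TGF-β1 high, 2 for TGF-β1 low, 2 for GSK126 high, 3 for GSK126 low and 3 for naive cells. The naive controls were untreated and were not divided into gates, so treatment and sorting cannot be told apart in a comparison with them. The labels do not say whether libraries of a group came from separate cultures, so the p-values measure the spread between these libraries, which may be technical. The high and low gates of a treatment may also share a culture.

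Type I and type III interferons act through receptor-associated kinases of the JAK family that phosphorylate STAT proteins, among them STAT2. With IRF9, STAT2 is part of the complex ISGF3, which binds the interferon-stimulated response element (ISRE) in promoters, while interferon-gamma acts mainly through the gamma-activated site (GAS). The products of the target genes sense viral RNA, degrade or sequester it, block virus entry and release, or feed back on the pathway, and epithelial cells of the airway are well known for this response.

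The promoters are shown because matches to this response element were common among the genes. RefSeq promoter windows on GRCh38.p14, running from 250 bases before to 50 bases after the annotated start, were found for 32 of the 39 genes. The ISRE was searched as GAAA, any 2 bases, then GAAA, on either strand, and the GAS as TTCNNNGAA, which is its own reverse complement. The 2 patterns can overlap each other. An ISRE match was present in 20 of the 32 windows (62.5%), against 996 of the 27305 windows of all genes (3.65%). A GAS match was present in 9 of the 32 (28.1%), against 7.88% of all windows. A match is a description of the letters and not evidence of a factor bound there. The 6 windows printed belong to genes on which the results below turn, each 5′ to 3′ on the gene's own strand. ISRE matches are in capitals for the first 5. The GAS match is in capitals for OAS1, which had no match to the ISRE pattern in this window. The OAS1 window does hold gaaacgaaa, where 2 GAAA stand 1 base apart, a spacing the pattern does not take. A window without a match may thus still hold a response element.
ISG15, chr1:1013247-1013546, plus strand: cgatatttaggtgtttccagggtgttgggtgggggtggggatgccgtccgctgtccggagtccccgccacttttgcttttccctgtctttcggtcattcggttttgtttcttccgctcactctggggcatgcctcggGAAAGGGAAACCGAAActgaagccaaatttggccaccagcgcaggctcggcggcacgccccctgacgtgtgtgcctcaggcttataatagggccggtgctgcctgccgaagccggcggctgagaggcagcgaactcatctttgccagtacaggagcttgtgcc
IFI6, chr1:27672143-27672442, minus strand: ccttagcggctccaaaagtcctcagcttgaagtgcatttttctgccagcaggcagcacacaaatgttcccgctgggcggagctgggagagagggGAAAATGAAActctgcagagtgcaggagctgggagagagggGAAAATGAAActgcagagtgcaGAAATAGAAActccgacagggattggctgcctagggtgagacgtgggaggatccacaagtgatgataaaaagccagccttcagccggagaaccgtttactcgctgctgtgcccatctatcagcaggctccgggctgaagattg
IFI27, chr14:94110486-94110785, plus strand: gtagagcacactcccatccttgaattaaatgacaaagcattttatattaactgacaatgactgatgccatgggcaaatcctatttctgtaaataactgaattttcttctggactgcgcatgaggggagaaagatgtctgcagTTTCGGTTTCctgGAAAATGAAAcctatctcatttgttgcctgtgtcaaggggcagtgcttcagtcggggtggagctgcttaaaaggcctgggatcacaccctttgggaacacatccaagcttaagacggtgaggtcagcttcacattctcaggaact
MX1, chr21:41420308-41420607, plus strand: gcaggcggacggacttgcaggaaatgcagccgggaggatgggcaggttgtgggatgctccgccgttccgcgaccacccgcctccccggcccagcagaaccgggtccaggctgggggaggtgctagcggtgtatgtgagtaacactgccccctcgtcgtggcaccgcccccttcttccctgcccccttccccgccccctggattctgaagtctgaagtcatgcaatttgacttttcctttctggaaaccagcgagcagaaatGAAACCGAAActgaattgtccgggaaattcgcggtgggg
IFI44L, chr1:78620198-78620497, plus strand: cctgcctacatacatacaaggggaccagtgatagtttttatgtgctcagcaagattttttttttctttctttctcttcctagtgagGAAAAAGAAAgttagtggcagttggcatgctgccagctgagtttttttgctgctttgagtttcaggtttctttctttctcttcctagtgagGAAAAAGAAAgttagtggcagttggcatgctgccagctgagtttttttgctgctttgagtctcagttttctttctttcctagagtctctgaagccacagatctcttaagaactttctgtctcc
OAS1, chr12:112906712-112907011, plus strand: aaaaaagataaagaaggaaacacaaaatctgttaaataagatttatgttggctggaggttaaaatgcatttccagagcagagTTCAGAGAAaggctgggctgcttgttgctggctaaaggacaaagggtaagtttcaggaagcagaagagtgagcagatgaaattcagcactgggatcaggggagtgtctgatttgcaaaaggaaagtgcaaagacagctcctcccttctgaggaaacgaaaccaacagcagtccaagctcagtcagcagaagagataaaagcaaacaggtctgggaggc
The ISG15 window held 2 matches that share their middle bases, the IFI6 window 3 separate matches, and the IFI27 window 1 match on each strand. The IFI44L window held the same stretch with its match repeated.

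Many of the genes lie beside each other. IFI44L and IFI44 are 3650 bases apart on chromosome 1, OAS1, OAS3 and OAS2 follow each other on chromosome 12 with gaps of 5129 and 5145 bases, and the 4 IFIT genes lie in a row on chromosome 10. SAMD9 and SAMD9L on chromosome 7, HERC6 and HERC5 on chromosome 4, CMPK2 and RSAD2 on chromosome 2, and PARP9 and DTX3L on chromosome 3 are likewise neighbours. Some share exon sequence with other annotated genes, so that the authors' counting could have lost or split their reads: IRF9 shared 48.4% of its exon bases with another gene, XAF1 38.3%, IFITM1 32.5%, IFITM2 22.7%, IRF1 22.0% and IFITM3 21.3%. IFITM2 and IFITM3 are also near-identical copies of each other, and their values carry that uncertainty throughout.

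Levels are given as CPM, the gene's counts scaled to the library's total. Library totals ran over 1660148 to 13280592 counts in H1944 (median 2552121) and over 2013449 to 9550143 in A549 (median 4783344). Reporter mVenus CPM followed the gates, at 2263 to 2428 in the TGF-β1 high and 769 to 831 in the TGF-β1 low gate of H1944, and 808 to 906 in the GSK126 high and 209 to 280 in the GSK126 low gate, against 327 to 394 in naive cells. The 6 epithelial carcinoma markers checked the labelled cell type and were detected in both lines, KRT8 (a keratin) with the most counts. Their summed level in H1944 was 1495 to 1732 CPM under TGF-β1 and 4944 to 7684 under GSK126, against 4990 to 5620 in naive cells; in A549 it was 4997 to 7385 under TGF-β1 and 8035 to 10775 under GSK126, against 12184 to 12797. Markers of leukocytes, 10 in all, summed to at most 19.3 CPM in any H1944 library and to at most 49.0 CPM in any A549 library; none was at 0 over a whole line. In bulk samples, fewer cells expressing a gene and less RNA per cell cannot be told apart. A549 libraries differed in reads outside expressed genes: the TGF-β1 high library B and the naive library A held 323 and 206 CPM over 397 olfactory receptor genes, which these cells should not express, against 5.99 to 127 CPM in the other A549 libraries. Those 2 libraries were also the highest of their arm for 24 and 25 of the 39 interferon-stimulated genes, so counts of calls that involve A549 are also given without them. In H1944 the summed olfactory receptor level was 3.62 to 65.1 CPM under TGF-β1 and 5.42 to 75.1 CPM under GSK126, against 4.57 to 11.4 CPM in naive cells. H1944 libraries were left out only in turn, not by background. The part of these reads in the H1944 calls was not tested.

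**Figure D1:**
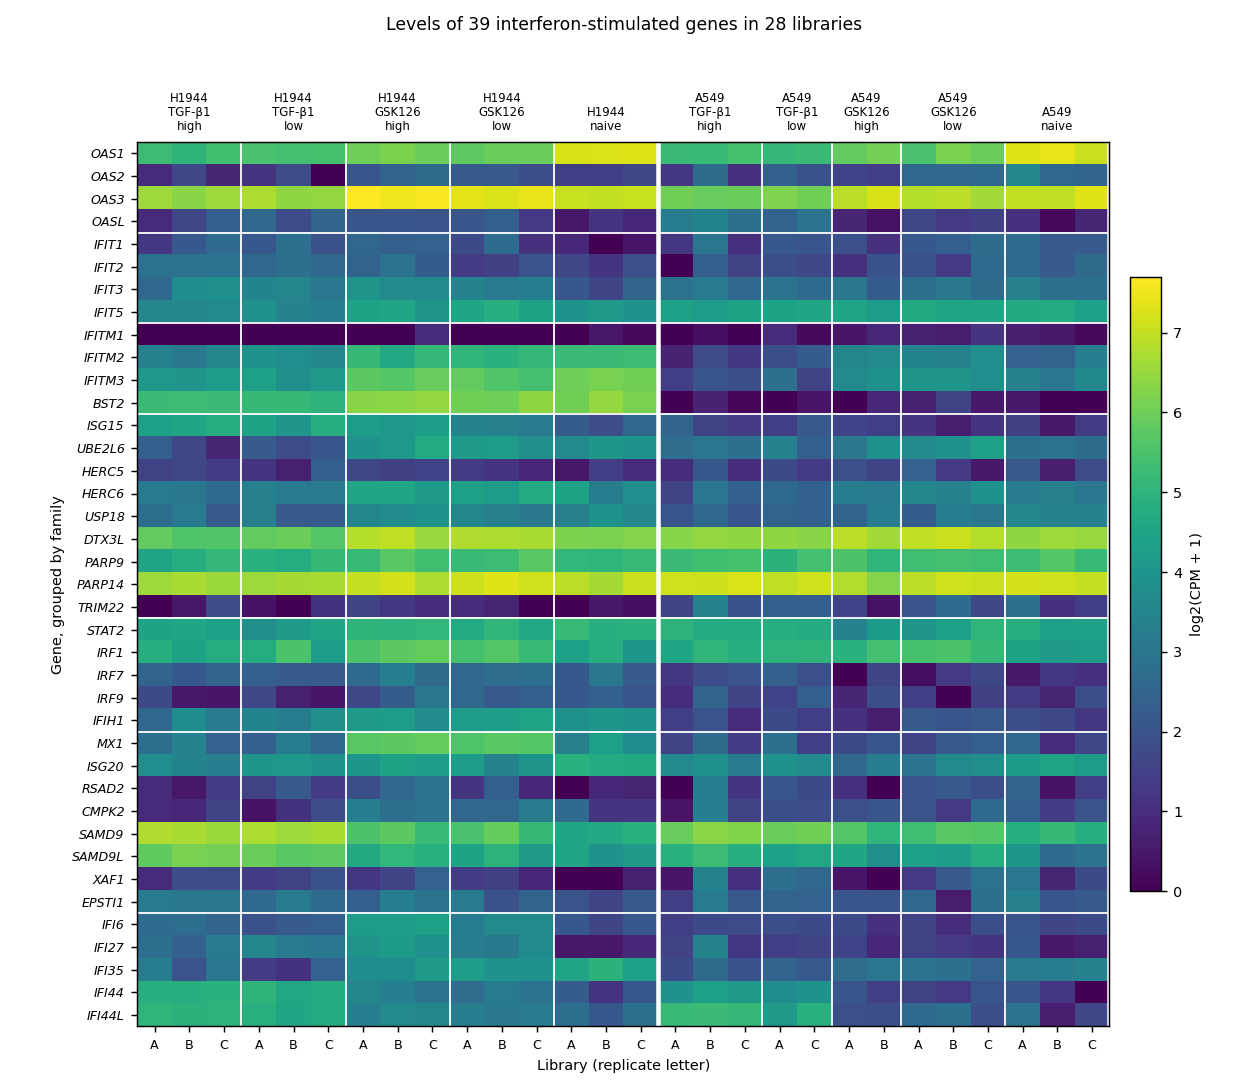
Heat map of log2(CPM + 1) for the 39 genes (rows, by family) in 28 libraries (columns, by line, treatment and gate, with the replicate letter below). OAS1 and OAS3 are bright in every column, BST2 is bright in the H1944 columns and dark in the A549 columns, and IFITM1 is dark throughout H1944.

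Naive cells of the 2 lines were compared first, since they set the level from which any treatment effect is read. Of the 39 genes 38 passed the filter on low counts in the fit of both lines. In naive H1944 12 were higher and 6 lower than in naive A549, in edgeR's quasi-likelihood test at a Benjamini-Hochberg adjusted p under 0.05, or 47.4% of the 38. Of all 17918 genes tested 46.4% passed (23.8% higher and 22.6% lower), a share near that of these genes. The median log2 fold change of the 38 was 0.19, against -0.10 over all genes. Fold changes were scaled by TMM, the CPM values were not. With RLE scaling, which moved the median of all genes by -0.145, the split was 10 higher and 8 lower. Without the 2 background-rich A549 libraries 21 were called (13 higher and 8 lower), 17 of them the same, where 52.2% of all genes were.

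BST2, also called tetherin, which holds budding virus on the cell surface, differed most. It had 63.9, 88.6 and 69.9 CPM in the 3 naive H1944 libraries, against 0.435, 0 and 0 CPM in the 3 naive A549 libraries. All H1944 libraries were far above all A549 libraries. The A549 value rests on 3 counts in all, against 1293 in H1944, so the ratio was 486.1, and its exact 95% counting interval ran over 166 to 2360.
IFITM3, a membrane protein that blocks virus fusion, had 63.5, 69.5 and 64.7 CPM in naive H1944, against 9.71, 7.09 and 11.0 CPM in naive A549. Its paralog IFITM2 had 37.0, 36.6 and 37.8 CPM in naive H1944, against 4.35, 4.63 and 8.84 CPM in naive A549. Neither gene's groups overlapped, and the log2 fold changes were 2.87 ± 0.22 (SE, adjusted p = 1.08e-12) and 2.68 ± 0.24 (adjusted p = 4.29e-11).
IFIH1, the RNA sensor MDA5, had 13.5, 15.4 and 14.3 CPM in naive H1944, against 2.61, 2.17 and 1.37 CPM in naive A549, a log2 fold change of 2.83 ± 0.33 (adjusted p = 1.61e-08). MX1, a GTPase that traps viral nucleocapsids, had 9.25, 19.1 and 12.5 CPM in naive H1944, against 4.93, 1.01 and 2.13 CPM in naive A549 (log2 fold change 2.38 ± 0.39, adjusted p = 9.16e-06). Here too every H1944 library lay above every A549 library.

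The other genes that were higher in naive H1944 were IFI35, ISG15, SAMD9L, UBE2L6, IRF7, HERC6 and STAT2, with log2 fold changes of 0.53 to 2.31. The calls of HERC6 and STAT2 were lost under RLE scaling, under DESeq2 and without any of naive A549 A or C and naive H1944 A or C (STAT2 also without naive A549 B), and that of ISG15 without naive H1944 library C. Lower in naive H1944 were 3 of the 4 IFIT genes (IFIT1 -3.28, IFIT3 -0.93, IFIT5 -0.62), whose proteins bind viral RNA ends, together with TRIM22, XAF1 and OAS2. IFIT1 rested on 7 counts in naive H1944, against 86 in naive A549, so that the A549 over H1944 ratio was 10.9 (exact counting interval 5.07 to 27.9). TRIM22 had 4 counts in naive H1944 against 61 in naive A549 and XAF1 8 against 69, and both calls, like that of OAS2, were lost without naive A549 library A, which is rich in background reads. The IFIT3 call was lost without naive A549 library A or naive H1944 library A or B, and the IFIT5 call with the replicate letter as a block (adjusted p = 0.0940).

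By length, set as mean CPM per kilobase of exon, BST2 (66.2), IFITM3 (48.9) and OAS1 (31.2) led the genes in naive H1944, and OAS1 (31.0), OAS3 (16.5) and DTX3L (15.3) led in naive A549. OAS1, which makes the 2′-5′ oligoadenylates that activate RNase L, did not differ detectably between the lines, at 148, 157 and 157 CPM in naive H1944 against 157, 170 and 133 CPM in naive A549 (log2 fold change 0.03 ± 0.16). In every library of both lines OAS1, OAS3, DTX3L, PARP9, PARP14, IRF1 and SAMD9 were at 10 CPM or more, and IFITM1 stayed under 1 CPM in every H1944 library.

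**Figure D2:**
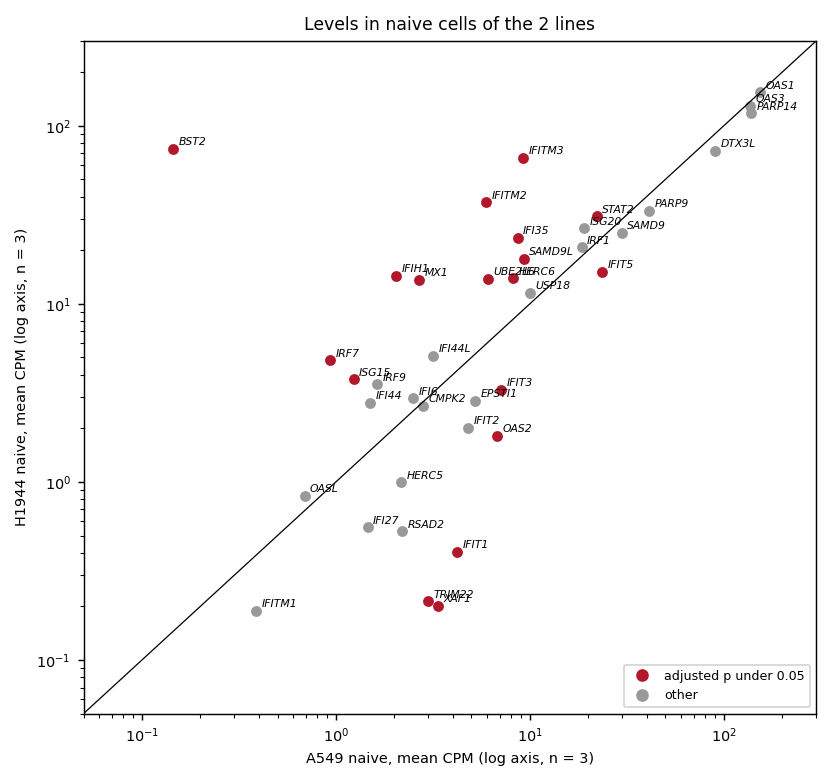
Mean CPM of each gene in 3 naive H1944 libraries (vertical, log axis) against 3 naive A549 libraries (horizontal, log axis), with the line of equal level. Red points passed the test between the lines; BST2 stands farthest above the line, and IFIT1, TRIM22 and XAF1 lie farthest below it.

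TGF-β1 and GSK126 were then each set against naive cells of H1944, with both gates pooled. The comparisons share the 3 naive libraries, so their values are given side by side and no agreement between them is read. Of the 39 genes 34 passed the filter, and OAS2, IFITM1, HERC5, TRIM22 and XAF1 did not. Under TGF-β1 12 rose and 15 fell, or 79.4% of the 34, where 63.7% of the 13621 genes tested were called (32.1% higher and 31.6% lower). Under GSK126 18 rose and 5 fell, or 67.6%, where 40.1% of all genes were called (21.4% higher and 18.7% lower). The median log2 fold change of the 34 genes was -0.29 under TGF-β1 and 0.43 under GSK126, against -0.01 and 0.01 over all genes. The epithelial markers moved with TGF-β1 as well: 6 of 6 fell under TGF-β1, and 3 of 6 fell under GSK126. Of 3 endothelial markers PECAM1 fell under both, by 3.47 under TGF-β1 and 1.38 under GSK126. Their part in these results was not tested.

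**Figure D3:**
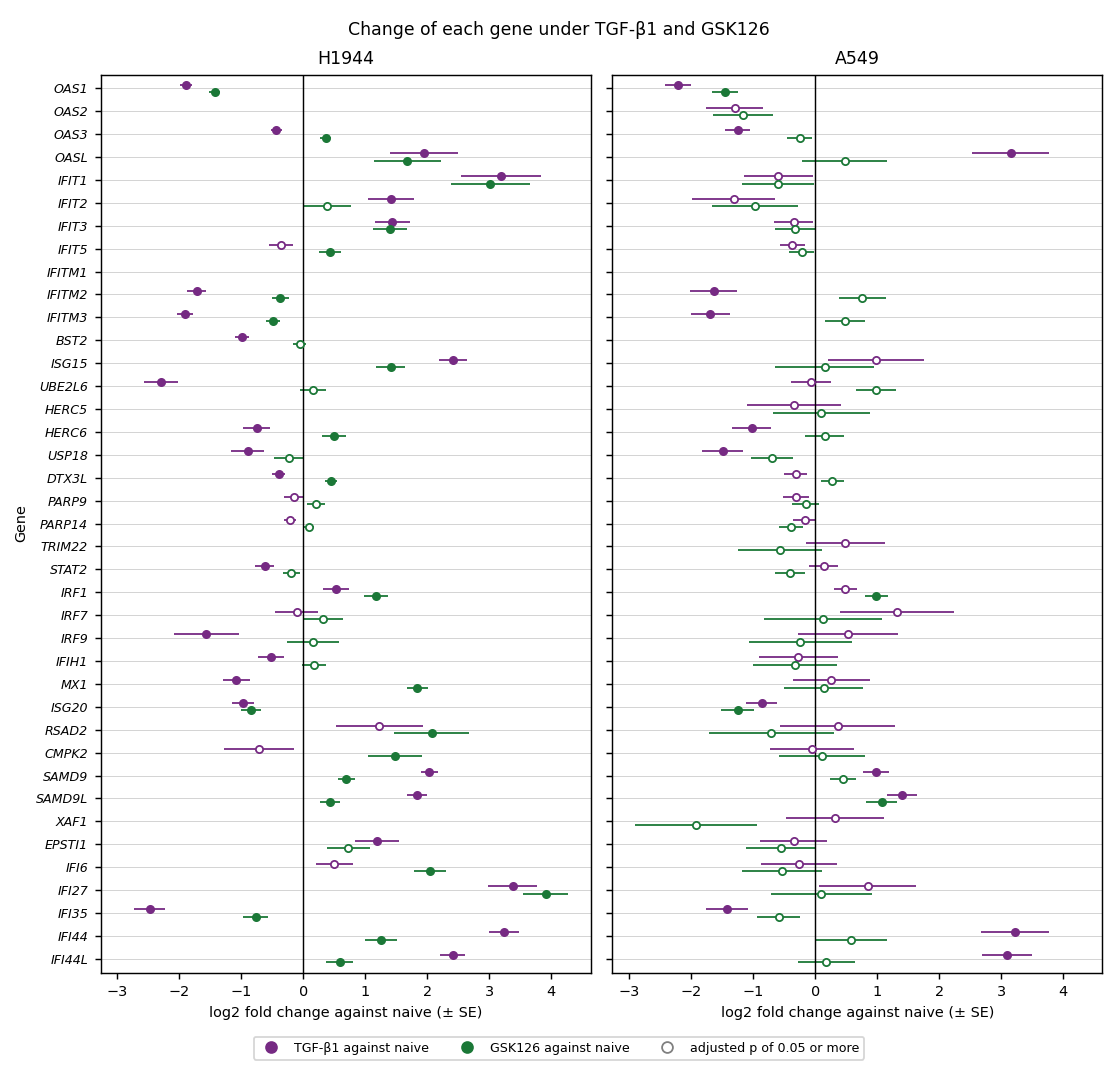
Log2 fold change (± SE) of each gene under TGF-β1 (purple) and GSK126 (green) against naive cells in H1944 (left) and A549 (right); filled points have an adjusted p under 0.05. OAS1 lies left of 0 in all 4 comparisons, and MX1, OAS3, DTX3L and HERC6 lie on opposite sides of 0 under the 2 treatments of H1944.

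In the OAS family, OAS1 (ENSG00000089127.11, chr12:112906777-112933222, GRCh38) fell under both treatments. It had 31.2 to 44.0 CPM under TGF-β1 (median 40.7, 6 libraries) and 54.5 to 71.2 CPM under GSK126 (median 61.0, 6 libraries), against 148, 157 and 157 CPM in naive cells. No treated library came near a naive one, and the treatments did not overlap each other. Its log2 fold change was -1.90 ± 0.10 under TGF-β1 (adjusted p = 5.16e-22) and -1.43 ± 0.09 under GSK126 (adjusted p = 8.45e-18), the smallest adjusted p of the set in both. OAS3 fell under TGF-β1 (-0.44 ± 0.09) and rose under GSK126 (0.36 ± 0.09). OASL, an OAS-like protein without synthetase activity that enhances RNA sensing, rose under both, by 1.94 under TGF-β1 and 1.68 under GSK126, where naive cells had 0.420 to 1.25 CPM. The OASL call under GSK126 was lost without the naive library A or C.

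The IFIT genes changed upwards where they changed. IFIT1 had 1.36 to 6.02 CPM under TGF-β1 (median 3.35) and 1.15 to 5.44 CPM under GSK126 (median 4.24), against 0.841, 0 and 0.376 CPM in naive cells. All treated libraries were above all naive libraries. The naive value rests on 7 counts: the ratio was 9.34 under TGF-β1 (counting interval 4.23 to 24.4) and 9.72 under GSK126 (4.5 to 25). Under TGF-β1 IFIT1 was lowest in high A and highest in low B, the libraries with the least and most olfactory receptor reads (3.62 and 65.1 CPM). Under GSK126 it had 4.84 CPM in high A and 4.33 CPM in high C, where those reads were 7.03 and 75.1 CPM. The part of these background reads in the rise was not tested. IFIT3 rose by 1.44 ± 0.29 under TGF-β1 and 1.39 ± 0.28 under GSK126 on the log2 scale, and IFIT2 rose by 1.41 ± 0.37 under TGF-β1, with 0.39 ± 0.39 and no call under GSK126. IFIT5 had -0.37 and no call under TGF-β1; its rise of 0.43 under GSK126 (adjusted p = 0.0447) was lost without any single naive library.

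The membrane restriction factors went down or did not pass. IFITM3 (ENSG00000142089.14, chr11:319669-327537, minus strand) had 13.3 to 19.6 CPM under TGF-β1 (median 16.4) and 42.0 to 58.7 CPM under GSK126 (median 51.2), against 63.5, 69.5 and 64.7 CPM in naive cells. The TGF-β1 libraries were lowest and the 3 arms did not overlap. The log2 fold change was -1.91 ± 0.13 under TGF-β1 (adjusted p = 1.90e-17) and -0.49 ± 0.11 under GSK126 (adjusted p = 0.000422). IFITM2 had -1.72 under TGF-β1 and -0.37 under GSK126, both past the test, and the call under GSK126 was lost without the naive library C or either GSK126 library B. BST2 fell by 0.99 under TGF-β1 and was not called under GSK126 (-0.06 ± 0.11).

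Of the ISG15 and ubiquitin-related genes, ISG15 itself (ENSG00000187608.7, chr1:1001138-1014540), a ubiquitin-like modifier, rose under both treatments. It had 15.1 to 26.7 CPM under TGF-β1 (median 21.5) and 7.77 to 18.8 CPM under GSK126 (median 13.1), against 3.78, 2.5 and 5.04 CPM in naive cells. Every treated library was above every naive library, and the treatments overlapped. Its log2 fold change was 2.41 ± 0.23 under TGF-β1 (adjusted p = 6.00e-13) and 1.41 ± 0.23 under GSK126 (adjusted p = 2.44e-06). Its conjugating enzyme UBE2L6 fell under TGF-β1 (-2.29 ± 0.28), with 0.786 to 4.08 CPM against 11.3 to 15.8 CPM in naive cells, and was not called under GSK126 (0.15 ± 0.21). USP18, which removes ISG15 and dampens receptor signalling, fell under TGF-β1 (-0.90 ± 0.26) and was not called under GSK126. DTX3L, a ubiquitin ligase that partners PARP9, had -0.40 under TGF-β1 and 0.45 under GSK126, and HERC6, of the same ligase family as HERC5, had -0.76 and 0.50, all past the test. The rise of HERC6 under GSK126 was lost in 9 of 16 alternatives, among them without the GSK126 high library A or B, the GSK126 low library C or the naive library B or C. PARP9 and PARP14 passed neither test against naive cells.

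Among the transcription factors and the sensor, 4 of 5 passed the test under TGF-β1 and 1 of 5 under GSK126. These shares, 80% and 20%, stand beside 63.7% and 40.1% of all genes. STAT2 (-0.62 ± 0.16) and IRF9 (-1.56 ± 0.52), which are both part of ISGF3, and IFIH1 (-0.52 ± 0.21) fell under TGF-β1; the IFIH1 call was lost without the TGF-β1 high library A or the naive library B or C. None of these 3 was called under GSK126, where STAT2 had -0.19 ± 0.14, IRF9 0.15 ± 0.42 and IFIH1 0.17 ± 0.19. IRF1, a factor that induces antiviral genes and responds to interferon-gamma, rose under GSK126 by 1.17 ± 0.19 (adjusted p = 1.54e-05), at 36.2 to 58.3 CPM against 15.4 to 26.6 CPM in naive cells. Its value under TGF-β1 was 0.53 ± 0.21 (adjusted p = 0.0282), a call lost without the TGF-β1 low library B, the TGF-β1 high library A or the naive library C. IRF7 passed neither test.

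Of the other effectors, MX1 (ENSG00000157601.12, chr21:41420304-41459214) separated the treatments most. It had 3.97 to 9.58 CPM under TGF-β1 (median 5.49) and 46.9 to 57.8 CPM under GSK126 (median 51.3), against 9.25, 19.1 and 12.5 CPM in naive cells. The GSK126 libraries stood alone at the top, and the TGF-β1 range reached into the naive range. The log2 fold change was -1.08 ± 0.22 under TGF-β1 (adjusted p = 3.96e-05) and 1.84 ± 0.17 under GSK126 (adjusted p = 1.42e-12).
SAMD9 (ENSG00000205413.6, chr7:93099513-93118023, minus strand), a restriction factor of poxviruses, had 91.9 to 108 CPM under TGF-β1 (median 104) and 34.5 to 58.1 CPM under GSK126 (median 44.3), against 22.7, 24.1 and 28.3 CPM in naive cells. The 3 arms did not overlap, and TGF-β1 was highest. Its log2 fold change was 2.03 ± 0.13 under TGF-β1 (adjusted p = 2.09e-17) and 0.69 ± 0.14 under GSK126 (adjusted p = 5.28e-05). Its neighbour and paralog SAMD9L had 1.84 ± 0.16 under TGF-β1 and 0.42 ± 0.16 under GSK126, and the call under GSK126 was lost in 8 of 16 alternatives, among them without either GSK126 library B or the naive library B or C. ISG20, an exonuclease, fell under both (-0.97 and -0.84). RSAD2 (viperin) and its neighbour CMPK2, both enzymes of nucleotide metabolism, rose under GSK126 by 2.07 ± 0.61 and 1.48 ± 0.44 and were not called under TGF-β1; CMPK2 was not called without the naive library B or C, nor RSAD2 without the GSK126 low library B. EPSTI1 rose under TGF-β1 (1.19 ± 0.35).

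All 5 genes named for interferon induction changed under GSK126 and 4 under TGF-β1. These shares, 100% and 80%, stand beside 40.1% and 63.7% of all genes. IFI27 (ENSG00000165949.11, chr14:94104836-94116698), a small mitochondrial membrane protein, had 4.16 to 10.4 CPM under TGF-β1 (median 7.44) and 7.67 to 17.3 CPM under GSK126 (median 12.8), against 0.420, 0.416 and 0.828 CPM in naive cells. Naive libraries were all under 1 CPM and treated libraries all above 4. The log2 fold change was 3.37 ± 0.39 under TGF-β1 (adjusted p = 3.23e-10) and 3.91 ± 0.37 under GSK126 (adjusted p = 2.85e-12).
IFI6 (ENSG00000126709.13, chr1:27666061-27672218, minus strand), which inhibits flavivirus replication, had 2.75 to 5.83 CPM under TGF-β1 (median 4.32) and 8.61 to 19.7 CPM under GSK126 (median 14.9), against 3.36, 2.08 and 3.39 CPM in naive cells. Only the GSK126 libraries stood clear of naive cells. Its log2 fold change was 2.05 ± 0.26 under GSK126 (adjusted p = 6.48e-09) and 0.50 ± 0.30 under TGF-β1, which missed the threshold (adjusted p = 0.147).
IFI44 (ENSG00000137965.9, chr1:78649796-78664078) and IFI44L (ENSG00000137959.14, chr1:78619922-78646145) are paralogs beside each other. IFI44 had 22.9 to 30.9 CPM under TGF-β1 (median 27.5) and 5.74 to 10.3 CPM under GSK126 (median 7.45), against 3.78, 1.25 and 3.31 CPM in naive cells. IFI44L had 22.3 to 31.7 CPM under TGF-β1 (median 29) and 7.42 to 11.4 CPM under GSK126 (median 8.70), against 5.89, 3.33 and 6.10 CPM in naive cells. In both genes the TGF-β1 libraries lay above all others and the GSK126 libraries just above the naive ones. The log2 fold changes under TGF-β1 were 3.24 ± 0.24 for IFI44 (adjusted p = 2.12e-16) and 2.41 ± 0.20 for IFI44L (adjusted p = 1.55e-14), and under GSK126 1.25 ± 0.26 (adjusted p = 0.000111) and 0.59 ± 0.22 (adjusted p = 0.0260). The IFI44L call under GSK126 was lost without the GSK126 high library B or the naive library B. IFI35 fell under both treatments, by 2.48 and 0.77.

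**Figure D4:**
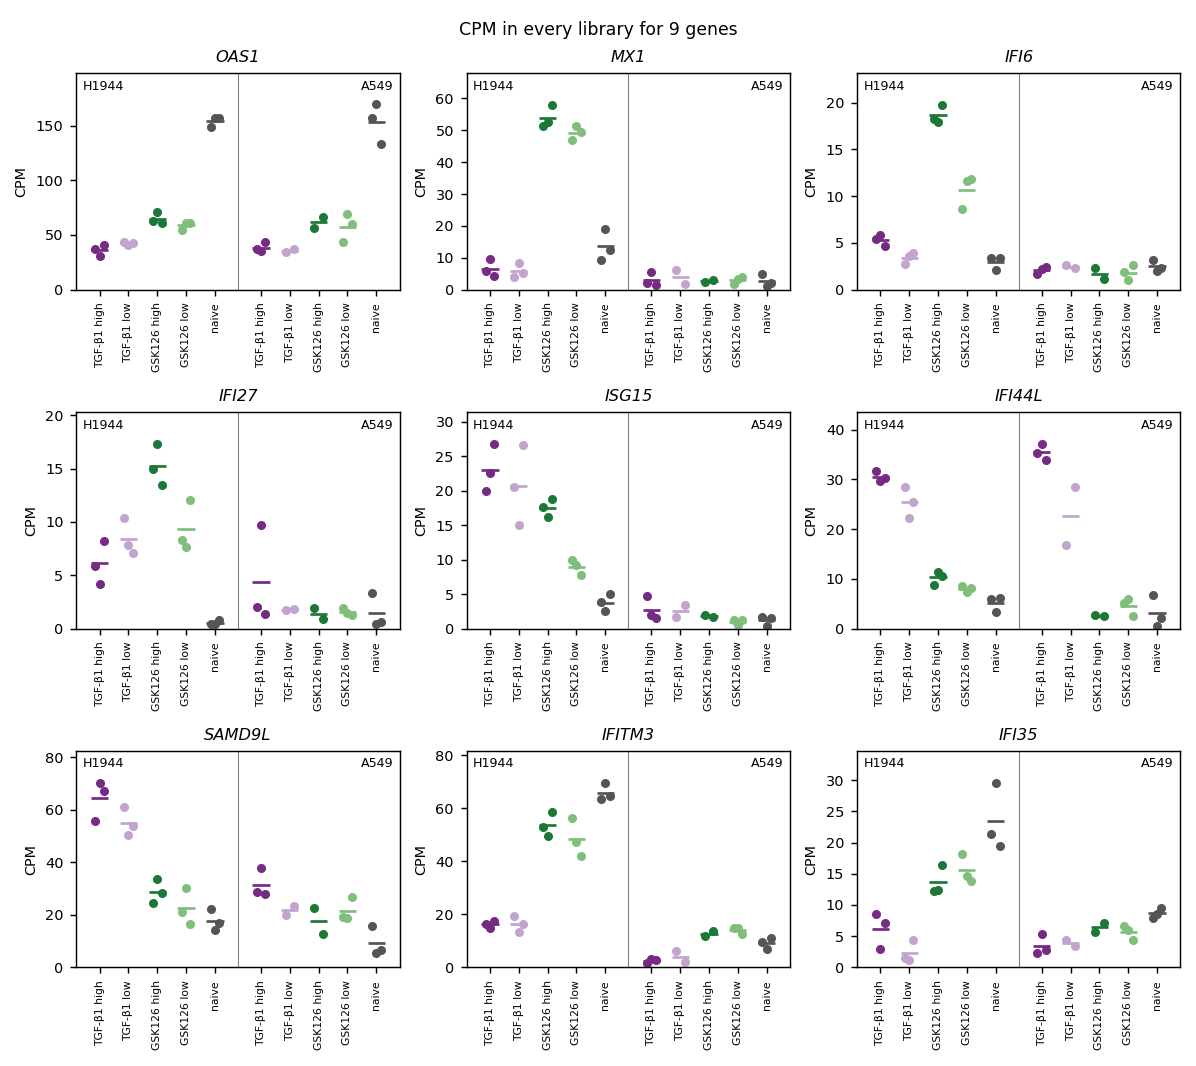
CPM of 9 genes in every library (points) with the group mean (bar), by treatment and gate, for H1944 (left of each panel) and A549 (right). MX1 and IFI6 are high in the GSK126 libraries of H1944 alone, IFI44L is high under TGF-β1 in both lines, and OAS1 is highest in naive cells of both lines.

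Within each treatment the single gates gave similar counts against naive H1944 cells: 27 genes past the test with the TGF-β1 high gate alone (58.8% of all genes) and 27 with the low gate alone (57.4% of all genes), and 21 with the GSK126 high (39.1% of all genes) and 17 with the GSK126 low gate alone (32.3% of all genes). ISRE matches were held by 8 of the 10 TGF-β1-higher genes with a promoter window and by 7 of the 13 lower ones, and by 12 of the 17 GSK126-higher genes and 2 of the 4 lower ones.

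The 2 treatments of H1944 were compared directly. Under TGF-β1 6 of the 34 genes were higher and 21 lower than under GSK126, or 79.4%, where 63.8% of all genes were called (31.6% higher and 32.1% lower). The median log2 fold change of the 34 was -0.59, against -0.01 over all genes. The 6 higher under TGF-β1 were SAMD9 (1.34 ± 0.10), SAMD9L (1.41 ± 0.12), IFI44 (1.99 ± 0.17), IFI44L (1.82 ± 0.15), ISG15 (1.01 ± 0.16) and IFIT2 (1.02 ± 0.31). MX1 had the largest fall, -2.92 ± 0.17 (adjusted p = 5.12e-20), followed by UBE2L6 (-2.45), CMPK2 (-2.19), IFI35 and IRF9 (both -1.71) and IFI6 (-1.55). IFIT1, IFIT3, OASL, ISG20, RSAD2, EPSTI1 and IRF7 were not called. The call of IFI27 (-0.53) was lost without GSK126 high B, GSK126 low C, TGF-β1 high B or TGF-β1 low C, and that of USP18 (-0.66) without either TGF-β1 library C.
Opposite calls against naive cells were made for 4 genes, all lower under TGF-β1 and higher under GSK126: MX1, OAS3, DTX3L and HERC6. OAS3 had 79.5 to 105 CPM under TGF-β1 and 155 to 206 CPM under GSK126, against 131, 126 and 130 CPM in naive cells. DTX3L had 46.6 to 61.4 CPM under TGF-β1 and 90.03 to 123 CPM under GSK126, against 71.5, 70.3 and 75.8 CPM in naive cells. Neither gene's 3 arms overlapped. HERC6 had 5.50 to 9.16 CPM under TGF-β1 and 16.4 to 25.6 CPM under GSK126, against 20.6, 8.32 and 12.8 CPM in naive cells, where the naive libraries spread across both treated ranges. The direct differences were -0.80 ± 0.08 for OAS3, -0.85 ± 0.09 for DTX3L and -1.25 ± 0.19 for HERC6.

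Gates were compared within each treatment of H1944. In the GSK126 high gate 2 of the 34 genes were higher than in the GSK126 low gate and none lower, or 5.88%, where 7.42% of all genes were called (3.87% higher and 3.55% lower). ISG15 had 17.6, 16.2 and 18.8 CPM in the high gate, against 9.89, 9.15 and 7.77 CPM in the low gate. IFI6 had 18.2, 18.0 and 19.7 CPM in the high gate, against 8.61, 11.6 and 11.8 CPM in the low gate. For both genes every high library exceeded every low library, with log2 fold changes of 0.97 ± 0.24 (adjusted p = 0.00639) and 0.80 ± 0.24 (adjusted p = 0.0321). The IFI6 call was lost when any library of the 2 gates other than the high library B was left out (adjusted p up to 0.142), and the ISG15 call was not. With the replicate letter as a block, the values were 0.98 for ISG15 (adjusted p = 0.0051) and 0.81 for IFI6 (adjusted p = 0.0331). That block set a common effect per letter over all 15 H1944 libraries, and so did not pair these gates alone. The median over the 34 genes was 0.25, against 0.03 over all genes. Beside this, summed epithelial markers were 5399 to 7684 CPM in the high gate and 4944 to 5979 CPM in the low gate, ranges that overlapped. KRT19, 1 of the 6 markers and a small part of that sum, averaged 25.5 CPM in the high gate against 0.751 CPM in the low gate. The other markers are not given singly by gate here. The part of the markers in the result was not tested. Under TGF-β1 no gene was called between the gates in edgeR or DESeq2, where 0.0808% of all genes were called (0.0147% higher and 0.0661% lower); 2 genes, IFI35 and ISG20, had an unadjusted p under 0.05. The difference between the gate effects of the 2 treatments was called for none of the 34 in either tool, where 0.595% of all genes were called (0.139% higher and 0.455% lower), with 5 at an unadjusted p under 0.05.

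**Figure D5:**
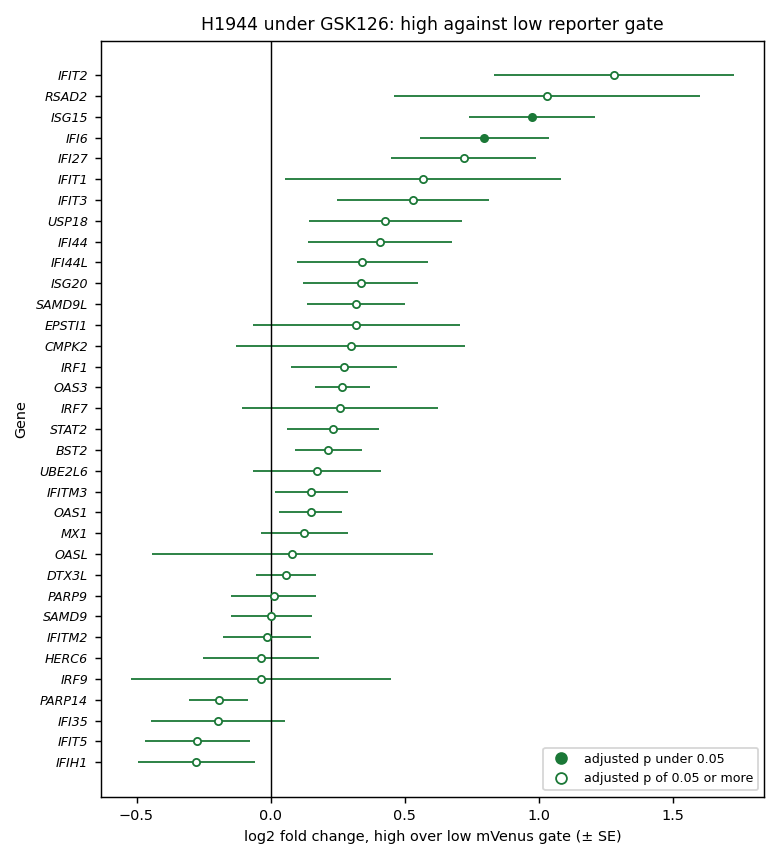
Log2 fold change (± SE) of the 34 tested genes between the high and low mVenus gates of GSK126-treated H1944, 3 libraries each, ordered by value. ISG15 and IFI6 (filled) passed the test; IFIT2 and RSAD2 had larger values with wider errors.

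Libraries of a group varied more in the A549 fit, with a common biological coefficient of variation of 0.358, against 0.0978 in the H1944 fit. The fits held unlike gene sets, 19842 genes in A549 and 13621 in H1944, and the A549 fit held the 2 background-rich libraries. In A549 37 of the 39 genes passed the filter, all but IFITM1 and BST2. Under TGF-β1 5 rose and 8 fell against naive cells, or 35.1%, where 19.3% of 19842 genes were called (7.77% higher and 11.5% lower). Under GSK126 2 rose and 2 fell, or 10.8%, where 6.87% of all genes were called (3.66% higher and 3.21% lower). The median over the 37 genes was -0.26 under TGF-β1 and -0.22 under GSK126, against 0.05 and -0.17 over all genes. Without the 2 background-rich libraries 15 were called under TGF-β1, 13 of them the same, where 32.1% of all genes were called, and under GSK126 the same 4, where 15.8% of all genes were. Of the epithelial markers 5 of 6 fell under TGF-β1, and 3 of 6 fell and 1 rose under GSK126; their part in these results was not tested.

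OAS1 fell under both treatments here too. It had 36.9, 35.2, 43.1, 34.2 and 36.8 CPM under TGF-β1 and 56.1, 66.7, 43.5, 69.5 and 60.0 CPM under GSK126, against 157, 170 and 133 CPM in naive cells. All treated libraries were far below the naive ones. The log2 fold change was -2.22 ± 0.21 under TGF-β1 (adjusted p = 1.30e-07) and -1.45 ± 0.21 under GSK126 (adjusted p = 0.000138).
OAS3 had 64.6, 59.0, 60.2, 72.9 and 63.6 CPM under TGF-β1, against 127, 124 and 159 CPM in naive cells, a log2 fold change of -1.25 ± 0.20 (adjusted p = 0.000105). Its value under GSK126 was -0.25 ± 0.20, with no call. IFI44L had 35.3, 37.0, 33.9, 16.8 and 28.4 CPM under TGF-β1, against 6.81, 0.578 and 2.13 CPM in naive cells, a log2 fold change of 3.09 ± 0.40 (adjusted p = 1.08e-05). The groups did not overlap for either gene; the highest naive IFI44L value was that of the background-rich library A.
IFI44 had 14.0, 19.7, 16.6, 12.4 and 14.5 CPM under TGF-β1, against 3.19, 1.30 and 0 CPM in naive cells, a log2 fold change of 3.23 ± 0.55 (adjusted p = 0.000189). SAMD9L had 28.6, 37.7, 28.1, 20.1 and 23.6 CPM under TGF-β1 and 22.5, 12.8, 19.2, 18.9 and 26.8 CPM under GSK126, against 15.8, 5.50 and 6.56 CPM in naive cells. The TGF-β1 libraries were all above the naive ones, while the GSK126 range reached into the naive range. The log2 fold change of SAMD9L was 1.40 ± 0.25 under TGF-β1 (adjusted p = 0.000266) and 1.07 ± 0.25 under GSK126 (adjusted p = 0.0111), the second lost without the GSK126 high library A or the naive library B or C.
The other genes that changed under TGF-β1 were OASL (3.15) and SAMD9 (0.98), which rose, and IFITM3 (-1.69), IFITM2 (-1.64), USP18 (-1.49), IFI35 (-1.42), HERC6 (-1.03) and ISG20 (-0.86), which fell. With the replicate letter as a block, HERC6 (adjusted p = 0.056) and ISG20 (adjusted p = 0.054) were no longer called. Both were also lost without either TGF-β1 low library or the naive library B or C, HERC6 without the naive library A as well, IFI35 without the TGF-β1 low library C and IFITM2 without the naive library C. Under GSK126 IRF1 had 29.4, 40.8, 42.9, 44.7 and 35.0 CPM, against 21.0, 16.6 and 17.8 CPM in naive cells, and rose by 0.98 ± 0.19 (adjusted p = 0.00193). ISG20 had 4.96, 8.84, 6.69, 11.9 and 13 CPM under GSK126, against 17.4, 21.5 and 18.0 CPM in naive cells, and fell by 1.25 ± 0.27 (adjusted p = 0.00567). Neither gene's groups overlapped; the IRF1 call was lost without the GSK126 high library B and the ISG20 call without the naive library B. No IFIT gene was called under either treatment, nor were MX1, ISG15, IFI6 and IFI27. All of these were at a low level in A549 except IFIT5, which had 10 CPM or more in every A549 library. IFI6 had at most 2.6 CPM under TGF-β1 and 2.59 CPM under GSK126, against 3.19 CPM in naive cells.

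Compared directly in A549, 4 genes were higher and 8 lower under TGF-β1 than under GSK126, or 32.4%, where 19.7% of all genes were called (8.01% higher and 11.7% lower). IFI44L (2.91 ± 0.37), OASL (2.68 ± 0.55), IFI44 (2.64 ± 0.47) and SAMD9 (0.53 ± 0.18) were higher. IFITM2 (-2.40 ± 0.35), IFITM3 (-2.17 ± 0.30), HERC6, UBE2L6, OAS3, OAS1, DTX3L and IRF1 were lower, by 0.50 to 2.40. Without the 2 background-rich libraries 15 were called, these 12 among them, where 32.2% of all genes were. Single libraries ended 6 of these 12 calls: GSK126 high B those of DTX3L, IRF1, OAS1, SAMD9 and UBE2L6, TGF-β1 low C those of DTX3L, HERC6, IRF1 and UBE2L6, and GSK126 high A or low B those of DTX3L, IRF1 and SAMD9. IRF1 was also lost without GSK126 low A or TGF-β1 low A or high A, and SAMD9 without GSK126 low A or C or TGF-β1 high A or C. Between the A549 gates no gene of the set and none of all genes was called under either treatment in edgeR, nor any of the set without the 2 background-rich libraries; DESeq2 also called none of the set. At an unadjusted p under 0.05 stood 1 gene under GSK126, XAF1, and 1 under TGF-β1, IFITM2.

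Between the lines, the lists overlapped as follows. All 13 genes called under TGF-β1 in A549 were called in the same direction in H1944 (100% of the A549 list and 48.1% of the H1944 list), and all 4 called under GSK126 in A549 were as well (100% and 17.4%). Over all genes the same held for 70.4% of the 3821 called under TGF-β1 in A549 (31% of the H1944 list) and for 53.6% of the 1363 called under GSK126 (13.4% of the H1944 list). Some of those were not tested in H1944, while the called members all were. Of the called genes that were tested in H1944, it held for 75.3% of 3574 under TGF-β1 and for 56.8% of 1285 under GSK126. The members' shares rest on 13 and 4 genes, and their difference from the shares over all genes was not tested. The difference of the effects itself passed the test for 10 of 38 genes under TGF-β1 (7 higher and 3 lower in H1944, or 26.3%, where 20.0% of all genes did, 10.5% higher and 9.43% lower) and for 8 of 38 under GSK126 (6 higher and 2 lower, or 21.1%, where 9.92% of all genes did, 6.17% higher and 3.75% lower). Without the 2 background-rich libraries the counts were 9 under TGF-β1, 7 of them the same, and 9 under GSK126, 6 of them the same. The share of all genes called without those libraries is not given here, so these counts are not set against it.

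The interferons themselves were hardly detected, apart from IFNE in A549. Over the 15 H1944 libraries 21 ligand genes summed to 84 counts, 4 of them at 0, and none passed the filter. In A549 they summed to 1221 counts, of which 471 were outside IFNE, the epithelial interferon epsilon. IFNE rose in A549 under TGF-β1, with a mean of 19.0 CPM against 3.44 CPM in naive cells (log2 fold change 2.33 ± 0.30, adjusted p = 7.26e-06).
Among the genes of the receptors and their kinases in H1944, JAK1, the kinase shared by interferon receptors, had 1.19 ± 0.09 under TGF-β1 and 0.58 ± 0.09 under GSK126. The receptor chains IFNAR1 (0.88 and 0.56) and IFNAR2 (0.74 and 0.86) rose under both, while IFNGR1 fell under TGF-β1 (-0.74). In A549 JAK2 fell under TGF-β1 (-0.84 ± 0.20), and JAK1, IFNAR1, IFNAR2 and IFNGR1 were called under neither treatment.
Of the 7 negative regulators 6 were tested in H1944. There 1 rose and 3 fell under TGF-β1 (66.7%, beside 63.7% of all genes), and 1 rose and 2 fell under GSK126 (50%, beside 40.1%). SOCS3, a feedback inhibitor of JAK kinases, fell by 2.26 ± 0.15 under TGF-β1 and 0.83 ± 0.13 under GSK126. The phosphatases PTPN2 (-0.65) and PTPN6 (-0.62) fell under TGF-β1, and under GSK126 PTPN11 fell (-0.35) and ADAR, an RNA-editing enzyme, rose (0.19). In A549 SOCS3 rose under GSK126 (1.33 ± 0.29), and PTPN6 fell under both TGF-β1 (-1.36) and GSK126 (-0.90).
Nucleic acid sensing genes passed in 11 of 13 cases under TGF-β1 (6 rose, 5 fell) and in 5 of 13 under GSK126 (3 rose, 2 fell) in H1944, or 84.6% and 38.5%, beside 63.7% and 40.1% of all genes. IFI16, a DNA sensor, rose by 1.59 ± 0.13 and 0.97 ± 0.13, and STING1, the adaptor of cytosolic DNA sensing, by 1.80 ± 0.25 and 1.86 ± 0.24. MAVS, the adaptor of RNA sensing, fell by 0.87 ± 0.09 under TGF-β1 and 0.73 ± 0.08 under GSK126. RIGI, an RNA sensor, rose under TGF-β1 (1.42 ± 0.15) and fell under GSK126 (-0.45 ± 0.16). IKBKE, a kinase downstream of the sensors, rose under GSK126 by 1.82 ± 0.18 (adjusted p = 2.58e-11). In A549 TLR3 fell (-2.41) and IKBKE rose (0.71) under TGF-β1, and RIGI fell (-0.96) and TRIM25 rose (0.82) under GSK126. That was 2 of 14 tested under each treatment (14.3%), beside 19.3% of all genes under TGF-β1 and 6.87% under GSK126.
Of 37 other interferon-stimulated genes tested in H1944, 13 rose and 11 fell under TGF-β1, and 13 rose and 1 fell under GSK126. These shares, 64.9% and 37.8%, were near the 63.7% and 40.1% of all genes called, and the genes named are examples taken by adjusted p. GBP1, an interferon-induced GTPase, rose under both (3.13 ± 0.16 and 0.99 ± 0.17). CD274, the checkpoint ligand PD-L1, averaged 35.6 CPM under TGF-β1 against 0.772 CPM in naive cells (5.28 ± 0.31), and GBP2 rose (1.69) and LY6E fell (-1.89 ± 0.15) under TGF-β1. APOL1 (0.77) and SLFN11 (0.53) rose under GSK126. Of 39 tested in A549, 6 rose and 5 fell under TGF-β1 (28.2%, beside 19.3% of all genes), with SLFN5 at 2.21 ± 0.23, DDX60L at 1.89 ± 0.21 and LY6E at -2.33 ± 0.21. Under GSK126 1 rose and 4 fell there (12.8%, beside 6.87% of all genes), with TRIM38 at -0.93, TRIM5 at -0.77 and SLFN11 at -0.74. Of the 5 interferon-gamma-responsive genes tested in H1944, 1 rose and 3 fell under TGF-β1 (80%, beside 63.7% of all genes), and 3 rose and none fell under GSK126 (60%, beside 40.1%). ICAM1, an adhesion molecule, fell under TGF-β1 (-1.64 ± 0.18) and rose under GSK126 (0.80 ± 0.15). PSMB9, an immunoproteasome subunit, fell (-1.72) and TAP1, a peptide transporter, rose (0.46) under TGF-β1, while PSMB8 (0.60) and TAP1 (0.57) rose under GSK126. Of 8 tested in A549, PSMB8 (-1.54), PSMB9 (-1.82) and TAP1 (-0.85) fell under TGF-β1 and TAP2 (0.85) rose under GSK126. These shares, 37.5% and 12.5%, stand beside 19.3% and 6.87% of all genes.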

How the data were processed

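Total RNA from the sorted and naive cells was made into libraries with a stranded kit, per the labels' protocols. The authors deposited 1 table of raw read counts per gene; bcl2fastq 2.20.0, STAR 2.6.0c, HTSeq 0.12.3 and the build GRCh38 are named in the submitters' processing notes, and the strand setting of the counting is not given in the sources used here. Of 60487 rows, 4 hold reporter sequences. Gene coordinates came from GENCODE 29.

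Counts were tested with edgeR 4.0.16 (R 4.3.3) by the quasi-likelihood F test, with TMM scaling and the group-wise filter on low counts, in 1 fit per line (5 groups each) and in 1 fit of 28 libraries for comparisons between lines. P-values were adjusted by Benjamini-Hochberg over all genes tested, with a threshold of 0.05. Standard errors were derived from the fold change and its F value. CPM used the raw totals, and counting intervals are exact and cover counting error only. The procedure was also run on simulated counts, drawn independently for each library without background reads or shared cultures. Its result is not given here, and such a run cannot speak to those limits.

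All 39 genes could be named. Values per library were given for those with the 5 smallest adjusted p in a comparison with naive cells or between gates and for those called in opposite directions; further levels were added after their values were seen. From each outside list the 3 genes of smallest adjusted p were named where reported here, and others named there were chosen after their values were seen. The 39 genes, the lists and the 2 background-rich libraries were chosen with earlier results of these data known. Some results of the outside lists are not reported here.

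Whether replicate letters pair libraries was judged by how far same-letter libraries depart together from their groups' means. Same-letter libraries of the H1944 GSK126 high and low gates correlated at 0.128, 0.218 and 0.18, over the limit of 0.1, so letters may pair these gates. The values of this comparison are from the fit without the block, with the blocked values beside them. The block set a common letter effect over all groups of a line. If letters pair these gates, the pooled GSK126 test against naive cells counted paired libraries as separate. Other pairs of groups did not all pass or were fewer than 3. Alternatives were RLE scaling, no filter, DESeq2 1.42.0, only the compared groups, the replicate block, single gates, each library left out, and the 2 background-rich libraries left out.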

Additional observations from a re-analysis of the deposited data

Results flagged for a closer look

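Treatment effects that differed between H1944 and A549, by the test of the difference itself in the fit of all 28 libraries (edgeR, adjusted over all genes), are listed here as the log2 effect in H1944 minus that in A549.

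Under GSK126 the effect was larger in H1944 for IFI6, by 2.62 ± 0.47 (adjusted p = 0.000174), IFI27, by 3.98 ± 0.83, IFIT3, by 1.79 ± 0.42, and IFIT1, by 3.61 ± 0.91. It was lower in H1944 for IFITM2, at -1.18 ± 0.30, and IFITM3, at -1.0 ± 0.28. MX1 differed by 1.77 ± 0.54 and XAF1 by 4.14 ± 1.29, with adjusted p of 0.0316 and 0.0351. MX1 was lost in 8 and XAF1 in 9 of 22 alternatives, both among them without the 2 background-rich A549 libraries (1.1 for MX1 and 3.0 for XAF1). The single libraries whose absence ended both calls were A549 GSK126 low A and high B, A549 naive A, H1944 GSK126 low B and H1944 naive A; A549 GSK126 high A and H1944 naive C also ended that of MX1, and H1944 GSK126 low A and high C and H1944 naive B that of XAF1. IFI27 was lost without the A549 naive library A, IFIT1 without the H1944 naive library C and IFITM3 without the A549 GSK126 high library B.

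Under TGF-β1 the difference was -2.37 ± 0.44 for UBE2L6 (adjusted p = 0.000126), 1.71 ± 0.41 for IFIT3, 3.63 ± 0.90 for IFIT1, 2.64 ± 0.72 for IFIT2 and 0.92 ± 0.25 for SAMD9, and no alternative ended these calls. It was 0.65 ± 0.20 for OAS3, lost without the A549 naive library C, and -0.90 ± 0.28 for STAT2, lost without the H1944 naive library A. IFI27, at 2.54 ± 0.79, was lost without the A549 naive library A and without the 2 background-rich A549 libraries (1.80, adjusted p = 0.0846), IFI35, at -1.26 ± 0.41, in 7 of 22 alternatives, and ISG15, at 1.49 ± 0.53 (adjusted p = 0.0440), in 14 of 22. Both were lost without the 2 background-rich libraries (-0.98 for IFI35 and 1.14 for ISG15). For IFI35 the losses also included the absence of A549 TGF-β1 low A, A549 naive A, H1944 TGF-β1 low A or B, or H1944 naive B. For ISG15 they also included the absence of A549 TGF-β1 low A or high B or C, A549 naive A or C, H1944 naive A or B, or any H1944 TGF-β1 library other than low B.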

How the results depend on the processing

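Of 2351 values of called genes under the alternatives, 2148 kept the call, 203 lost it and 0 reversed. With no filter on low counts, 2 genes were called under GSK126 in A549 (4 with the filter), 7 between TGF-β1 and GSK126 in A549 (12 with it) and 1 between the H1944 GSK126 gates (2 with it); with only the compared groups in the fit the last was also 1. With 1 library left out at a time, the counts against naive cells were 25 to 28 under TGF-β1 and 17 to 23 under GSK126 in H1944, and 10 to 14 under TGF-β1 and 2 to 4 under GSK126 in A549. Between TGF-β1 and GSK126 they were 26 to 29 in H1944 and 7 to 14 in A549, and between the H1944 GSK126 gates 1 to 2. The low of 2 came without the A549 naive library B, and that of 7 without the A549 GSK126 high library B. With the replicate letter as a block, the counts were 27 under TGF-β1 and 21 under GSK126 in H1944, 11 and 4 in A549, 9 between the A549 treatments, and 2, the same calls, between the H1944 GSK126 gates; IFIT5 (adjusted p = 0.083) and SAMD9L (adjusted p = 0.054) were lost under GSK126 in H1944, and no count moved over 1.5 times. The cause of these changes was not tested, other than that fewer libraries or other genes entered the fit. The counts in this section are given without the share of all genes called, and show only how far the calls moved. Library depth limits genes of a few CPM most.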
